A study of Mus musculus with 19 samples.

Results

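Late TEAD peaks were regions of mouse liver chromatin called as bound by TEAD after 7 days of YAP induction that touched no TEAD peak of the 3 day list and none of the wild-type list, with a shared base pair counted as an overlap. They numbered 11185 of the 38984 TEAD peaks called at 7 days, and of 82869 peaks in all 6 lists of the series. The members were thus chosen by the calls in the TEAD lists themselves, so their strength at 7 days and their absence from the 3 day list are given as a description and support nothing.

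Livers of C57BL/6 mice were profiled by chromatin immunoprecipitation and sequencing with an antibody against YAP or against TEAD. All mice carried ROSA26-rtTA-IRES-EGFP, a gene for a transactivator that works in the presence of doxycycline, and all received doxycycline in the food. The wild-type group (WT), without the tetYAP transgene, was fed for 7 days, and the tetYAP groups were fed for 3 days (3 d) or 7 days (7 d). The transgene encodes an activated YAP, and an albumin-driven Cre limits its induction to hepatocytes, while the chromatin came from whole liver. Each group had 3 libraries, other than TEAD at 7 d with 4, and the authors merged the libraries of a group before calling peaks, so 1 list stands for each group and no spread between animals can be given. The study describes its TEAD antibody as raised against TEAD4 and able to bind TEAD1 and TEAD3 as well. The sources used here give neither the age nor the sex of the animals in each library.

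YAP is a coactivator that does not bind DNA itself. The Hippo kinases hold it in the cytoplasm, and once free of them it enters the nucleus and is carried to chromatin by TEAD1 to TEAD4. TEAD proteins recognise a short core, GGAATG, and much of their binding lies at enhancers, where they often sit beside AP-1, a dimer of Fos and Jun proteins that recognises TGANTCA. In the adult liver YAP activity is low in hepatocytes and higher in bile duct cells.

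The sequences below show what strong late sites look like. All touch no annotated UTR. The first 3 are the strongest such late peaks at promoters, the next 2 are among the 3 strongest away from promoters, and the last 3 are among the strongest that overlapped a YAP peak, each as the summit base with 100 bp on either side, on the plus strand of mm9. Capitals mark GGAATG and its close relative GGAATT on either strand. GGAATT was added after the sequences had been seen.

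Gm11985 promoter, chr11:7086061-7086261: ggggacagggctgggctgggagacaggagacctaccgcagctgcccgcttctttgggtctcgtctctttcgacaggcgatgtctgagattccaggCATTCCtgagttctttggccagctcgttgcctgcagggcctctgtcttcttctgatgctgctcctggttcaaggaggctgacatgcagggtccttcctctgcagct

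Ide promoter, chr19:37386823-37387023: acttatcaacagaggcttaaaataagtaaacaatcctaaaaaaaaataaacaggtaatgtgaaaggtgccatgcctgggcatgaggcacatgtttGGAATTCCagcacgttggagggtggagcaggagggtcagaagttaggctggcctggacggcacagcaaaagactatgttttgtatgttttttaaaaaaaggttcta

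Fam175b promoter, chr7:140071126-140071326: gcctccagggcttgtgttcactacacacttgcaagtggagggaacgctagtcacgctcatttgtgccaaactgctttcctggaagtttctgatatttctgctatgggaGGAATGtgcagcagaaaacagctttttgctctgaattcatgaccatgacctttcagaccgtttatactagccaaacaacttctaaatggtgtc

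Ptprd site, chr4:76122383-76122583: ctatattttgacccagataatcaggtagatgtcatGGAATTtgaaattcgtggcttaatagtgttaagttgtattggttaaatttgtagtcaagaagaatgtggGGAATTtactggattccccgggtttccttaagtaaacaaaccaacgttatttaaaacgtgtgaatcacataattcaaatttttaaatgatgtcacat

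Mrgprb3 site, chr7:55909988-55910188: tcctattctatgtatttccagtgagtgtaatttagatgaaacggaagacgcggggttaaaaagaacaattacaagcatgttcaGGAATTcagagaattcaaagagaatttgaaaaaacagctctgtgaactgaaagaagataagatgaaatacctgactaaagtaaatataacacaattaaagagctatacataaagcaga

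Sntb1 site, chr15:55874925-55875125: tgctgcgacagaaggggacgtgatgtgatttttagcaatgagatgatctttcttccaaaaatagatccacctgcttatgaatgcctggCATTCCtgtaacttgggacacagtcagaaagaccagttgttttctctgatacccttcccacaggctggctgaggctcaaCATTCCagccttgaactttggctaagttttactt

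Plau site, chr14:21685704-21685904: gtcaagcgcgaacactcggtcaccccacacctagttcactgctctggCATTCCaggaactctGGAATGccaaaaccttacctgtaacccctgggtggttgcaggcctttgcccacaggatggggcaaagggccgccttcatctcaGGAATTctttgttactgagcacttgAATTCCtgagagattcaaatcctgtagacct

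Ipmk site, chr10:71348109-71348309: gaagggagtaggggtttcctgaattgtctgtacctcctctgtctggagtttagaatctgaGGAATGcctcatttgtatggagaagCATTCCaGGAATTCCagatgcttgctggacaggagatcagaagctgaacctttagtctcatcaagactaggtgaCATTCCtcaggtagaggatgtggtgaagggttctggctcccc

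The 8 windows are a selection of strong sites, and how often the cores occur is given over all late peaks further on.

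At 7 d the late peaks were the weaker part of the TEAD list, with a tail of strong sites. Their median fold enrichment over background was 5.89 (quartiles 5.02 and 7.54, n = 11185), with a median of 27 fragments stacked at the summit (the pileup) and a median length of 284 bp. Early sustained peaks, which overlapped a 3 d but no WT peak, had a median fold enrichment of 7.54 (n = 22283), a pileup of 34 and a length of 389 bp. Constitutive peaks, which overlapped a WT peak, had a median of 16.7 (n = 5516), a pileup of 76 and a length of 613 bp. Late peaks made up 28.7% of the 7 d TEAD list, which is the share that the rule itself fixes. In 10 classes of rising fold enrichment, the late share went from 50.5% in the weakest class to 5.54% in the strongest. A fold enrichment of 20 or more was reached by 187 late peaks, by 1213 early sustained and by 2118 constitutive peaks. The 8568 peaks found in the 3 d list alone had a median fold enrichment of 4.34 and none reached 20. That list came from a deeper library, with 55032002 tags against 38523843 at 7 d.

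**Figure D1:**
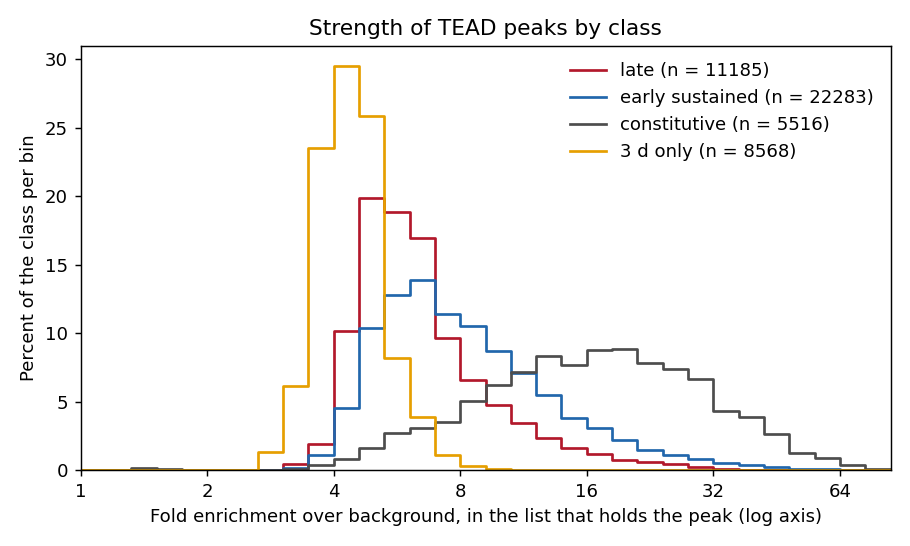
Distribution of fold enrichment over background (log axis) for late, early sustained and constitutive peaks in the 7 d TEAD list and for peaks of the 3 d list alone, as the percent of each class per bin. The late curve has its median at 5.89 and a tail that runs to 53.0, while the curve of the 3 d only peaks, with its median at 4.34, ends at 11.2.

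The nearest 3 d or WT TEAD peak lay a median of 8238 bp from a late peak. A gap of 10 bp or less separated 15 late peaks from such a peak, with a median fold enrichment of 4.80, and 23 peaks shared 10 bp or fewer with one and were not late, with a median fold enrichment of 4.71. The smallest gap was 2 bp. Within 1000 bp of an older TEAD peak lay 2029 late peaks (18.1%), and 1018 (9.10%) had none within 100 kb or on the same sequence.

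A peak missing from a list can still hold signal below the threshold of the caller, so the pileup that 3 d chromatin could hold at a late site without being called was computed from the test of the caller. On the genome-wide background up to 18 stacked fragments would have gone uncalled at 3 d. Per tag, the 7 d pileup at late sites therefore exceeded the 3 d pileup by at least a median of 2.05 times (quartiles 1.75 and 2.57, range 1.17 to 17.9). Values above 1 follow from the rule and from the library depths, so the ratio describes the late peaks and is no evidence of a gain. This is approximate, since the caller also asks for a minimum length, and no such value was computed for WT. At 5742 late sites (51.3%) the lowest ratio was 2 or more, at 484 it was 5 or more, and at 30 it was 10 or more. Peaks called at both times give the scale of this ratio. At early sustained peaks the measured 7 d to 3 d ratio had a median of 1.32 (quartiles 1.09 and 1.63), with a 95th percentile of 2.56. The lowest ratio was within that range at 8383 late sites (74.9%) and above it at 2802. For the 3 d only peaks the same lowest ratio, taken from 3 d to 7 d, had a median of 1.26 and reached 3.28 at most. The 3 d library held 1.43 times the tags of the 7 d library. That depth raises the lowest ratio of late peaks and reduces that of 3 d only peaks, so the 2 medians are not alike in scale.

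Strong late sites away from promoters included the peak at chr4:76122147-76122816, in an intron of the receptor phosphatase gene Ptprd, with a fold enrichment of 40.0, a pileup of 212 and a -log10 p of 253. The one at chr7:55909678-55910445, 10917 bp upstream of the G protein-coupled receptor gene Mrgprb3, had a fold enrichment of 46.0. At these sites the 7 d signal per tag was at least 14.4 and 15.5 times the 3 d signal. Further sites of this set lay 136521 bp upstream of Sntb1, which encodes a syntrophin of the dystrophin complex (42.9-fold), 29920 bp from the start of Plau, the gene for urokinase (39.8-fold), and 42733 bp upstream of the G protein subunit gene Gng2 (37.0-fold). The site whose nearest coding gene was the inositol kinase gene Ipmk, 476098 bp away (38.6-fold), had no 3 d TEAD peak within 516312 bp. Of the 10 strongest sites away from promoters 9 overlapped a YAP peak of 7 d, against 0.903% of all late peaks and 3.58% of all TEAD peaks of 7 d. The exception was the site 62295 bp upstream of Nkain2 (38.2-fold). Strong peaks of the other classes overlapped YAP as well. At 20-fold or more the share was 32.6% of late, 32.2% of early sustained and 31.1% of constitutive peaks.

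At promoters, the strongest late peak, at chr11:7085921-7086533 (30.6-fold, pileup 148), lay 132 bp past the start of the non-coding gene Gm11985, 11624 bp upstream of Igfbp1, which encodes an insulin-like growth factor binding protein secreted by hepatocytes. It overlapped a YAP peak with a fold enrichment of 6.09. Next came an intronic peak 1140 bp past the start of Ide, the insulin-degrading enzyme (27.7-fold), and a peak 168 bp past the start of Fam175b (29.2-fold). The matrix gene Efemp1 had a late peak 1398 bp upstream of its start (28.8-fold). Tead4, which encodes one of the TEAD factors, had one 1289 bp upstream (18.2-fold, pileup 96), although its promoter also held an older TEAD peak, 1022 bp from the late one. The deacetylase gene Sirt2 had one 1214 bp past its start (20.7-fold). The 5 late peaks with the lowest -log10 p (5.18 to 5.36, pileup 17 to 23) lay near the starts of Lmo7 and Srprb and within introns of Asap2, Elmo1 and Ankrd11.

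Late peaks lay away from promoters more often than the other TEAD peaks did. A promoter, from 2000 bp before to 1000 bp after an annotated start, was touched by 2194 of 11175 late peaks on assembled chromosomes (19.6%, 95% Wilson interval 18.9 to 20.4). The share was 32.4% among early sustained peaks, a difference of -12.8 percentage points (95% interval -13.7 to -11.8). It was 35.5% among constitutive peaks and 30.6% among the 3 d only peaks. Gene bodies held 44.6% of the late peaks and intergenic sequence 35.8%, against 38.5% and 29.1% of the early sustained ones. The summit was a median of 10710 bp from the nearest start for late peaks and 6286 bp for early sustained peaks. When the early sustained peaks were reweighted to the fold enrichment of the late ones, the difference was -16.3 points (95% interval -17.3 to -15.3), and the late share was lower in all 10 classes of fold enrichment. Such intervals cover counting error only, treat peaks as independent and say nothing of the spread between animals.

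The TEAD core was found near more of the late summits than of the early sustained ones. Within 100 bp of the summit, GGAATG occurred in 4148 of 11175 late peaks (37.1%, 95% interval 36.2 to 38.0), in 30.3% of early sustained, in 51.0% of constitutive and in 19.3% of 3 d only peaks. Of 1271494 genome windows of the same length, 10.8% held it. The late share exceeded the early sustained share by 6.78 percentage points (95% interval 5.70 to 7.86), and by 12.0 points (10.9 to 13.1) at like fold enrichment. In the weakest of 10 classes of fold enrichment 24.1% of late peaks held the core, against 16.4% of early sustained peaks, and in the strongest class 54.9% did, against 46.1%. Against constitutive peaks at like fold enrichment the difference was -2.09 points, with an interval from -5.34 to 1.15. At promoters, 27.7% of late and 23.2% of early sustained peaks held the core, and away from promoters 39.4% and 33.8% did. Among peaks with a -log10 p from 15 to 20, the core was near 43.8% of late summits (n = 1769), 26.5% of early sustained and 27.9% of 3 d only summits, the last from the deeper library. At least 2 copies were found in 6.14% of late and 3.63% of early sustained peaks.

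The cores were centred on the late summits. In the 20 bp bins next to the summit there were 87.8 cores per 1000 late peaks, 8.17 times the density beyond 300 bp from the summit. The density next to the summit was 73.7 for early sustained peaks, 158 for constitutive peaks and 33.0 for 3 d only peaks. GGAATT showed the same order, at 26.3% of late, 21.2% of early sustained, 28.2% of constitutive and 13.2% of 3 d only peaks, against 11.8% of the genome windows. One or the other sequence was present in 56.1% of all late peaks and in 166 of the 187 with a fold enrichment of 20 or more (88.8%, 95% interval 83.4 to 92.5), against 21.4% of the genome windows.

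**Figure D2:**
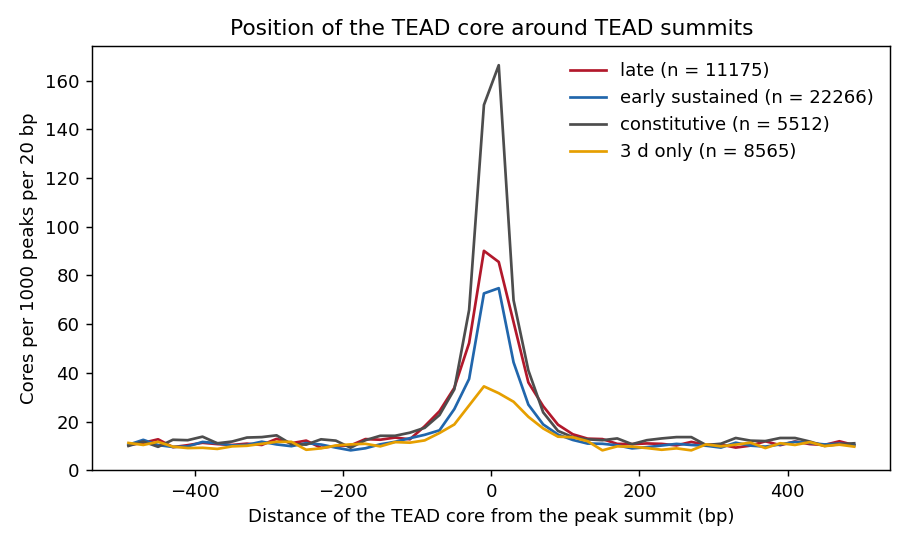
Number of GGAATG cores per 1000 peaks in 20 bp bins by their distance from the summit, for each class of TEAD peak. Late peaks reach 87.8 next to the summit, between constitutive (158) and early sustained (73.7) peaks, and beyond 300 bp the classes lie between 10.2 and 11.9.

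AP-1 sites were near more of the late summits than of the summits of any other class. TGANTCA lay within 100 bp of 1257 late summits (11.2%, 95% interval 10.7 to 11.8), against 7.77% of early sustained, 7.33% of constitutive and 5.43% of 3 d only peaks, and 5.92% of genome windows. The difference from early sustained peaks was 3.47 percentage points (2.80 to 4.17), or 4.15 (3.45 to 4.85) at like fold enrichment, and that from constitutive peaks at like fold enrichment was 4.23 (2.44 to 6.02). In each of the 10 classes of fold enrichment the late share was higher than the early sustained one. Among the late peaks with a fold enrichment of 20 or more, 37 of 187 (19.8%) held the site, against 134 of 1213 early sustained and 177 of 2118 constitutive peaks (8.36%). Both TGANTCA and GGAATG were near 4.45% of late summits and near 2.60% of early sustained ones.

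Motifs typical of promoters were scarcer. The SP/KLF box GGGCGG was near 6.62% of late and 12.9% of early sustained summits, and it remained scarcer within promoters, at 20.6% against 30.7%. The ETS site CCGGAAG was near 1.84% and 3.66%, and the E-box CACGTG near 3.55% and 4.81%. The median GC content of the window was 45.8% in late and 48.3% in early sustained peaks. Among motifs of hepatocyte factors, the HNF4 site CAAAGTCCA was near 1.29% of late and 1.93% of early sustained summits, the C/EBP site TTGCNNAA near 13.9% and 15.4%, and the HNF1 motif near 1.08% and 1.37%. Of genome windows, 0.265%, 9.38% and 0.224% held these, in the same order. At like fold enrichment the interval of the difference included 0 for C/EBP (-1.53 to 0.13 points) and HNF1 (-0.43 to 0.08), but not for HNF4 (-0.80 to -0.22). The forkhead site TGTTTAC was near 5.87% and 5.69%, a difference whose interval, -0.34 to 0.72 points, included 0, and so did that of the other forkhead form, TATTTAC (4.55% and 4.43%). Higher in late peaks were the GATA site AGATAA (12.3% and 10.4%), the STAT site TTCNNNGAA (9.02% and 8.06%) and the RUNX site TGTGGTT (4.70% and 3.96%), and 13.3%, 7.45% and 4.74% of genome windows held these. The NF-Y box CCAAT was near 26.1% and 29.2%, and the NFI motif near 5 late peaks in all. All motifs were searched on both strands, and STAT sites can overlap TEAD cores.

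**Figure D3:**
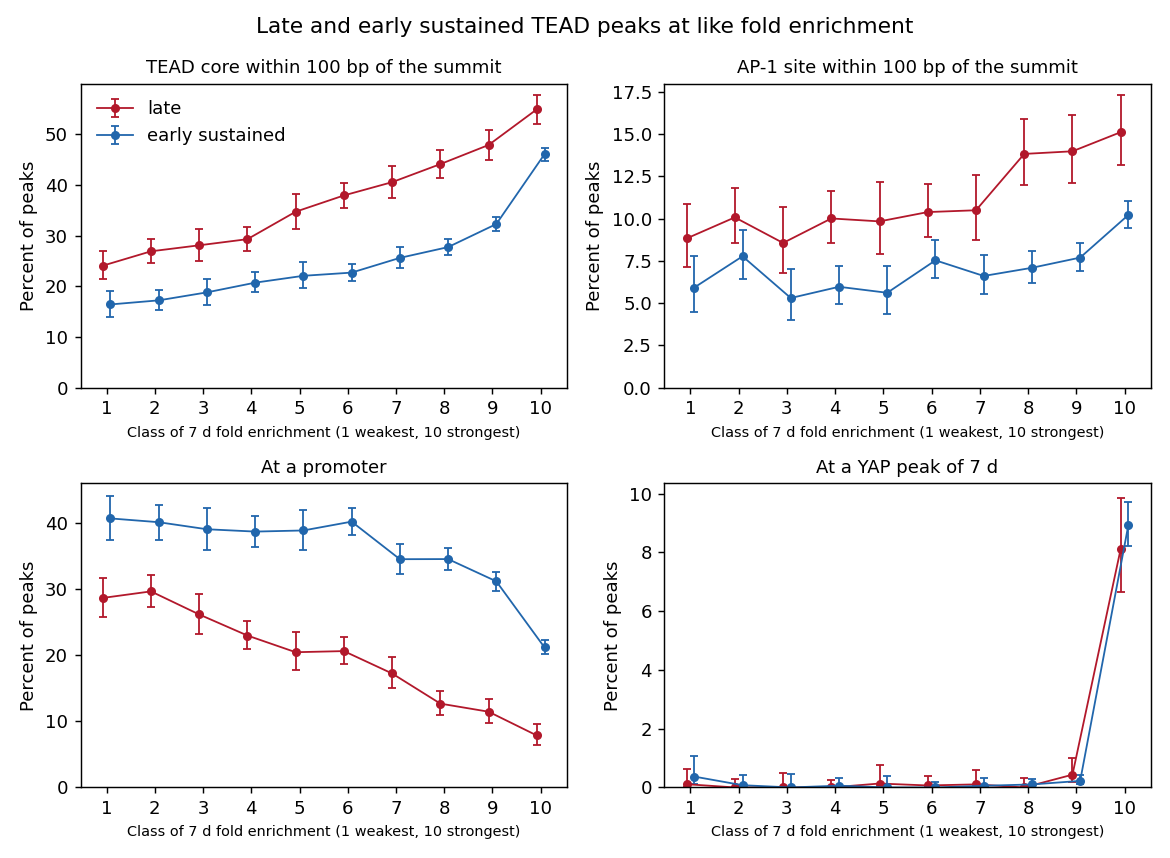
Percent of late and early sustained peaks with a TEAD core, with an AP-1 site, at a promoter and at a YAP peak of 7 d, in 10 classes of 7 d fold enrichment that hold 752 to 1483 late peaks each, with 95% Wilson intervals. The late points lie above the early sustained ones for both motifs and below them for promoters in all 10 classes, and for YAP they overlap in the strongest class, at 8.12% and 8.94%.

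YAP was called at few late sites, and most of those were strong TEAD peaks, with a median fold enrichment of 22.1. A YAP peak of 7 d overlapped 101 of the 11185 late peaks (0.903%, 95% interval 0.744 to 1.10), against a background of 3.58% over all TEAD peaks of 7 d. The share was 2.33% among early sustained and 14.0% among constitutive peaks. The difference between late and early sustained peaks was -1.43 percentage points (95% interval -1.69 to -1.16), and at like fold enrichment it was -0.088 points, with an interval from -0.285 to 0.108 that included 0. Constitutive peaks reweighted in the same way gave a difference of -7.75 points (95% interval -9.69 to -5.82). That value leaned on weak classes with few constitutive peaks. In the weakest class 20.3% of 64 constitutive peaks overlapped a YAP peak, against 0.110% of the late ones. In the second strongest class the shares were 0.940% of constitutive and 0.434% of late peaks. In the strongest, which has no upper limit, they were 17.5% and 8.12%. Among peaks with a fold enrichment of 20 or more, 61 of 187 late (32.6%, interval 26.3 to 39.6), 390 of 1213 early sustained (32.2%) and 659 of 2118 constitutive peaks (31.1%) overlapped a YAP peak. The YAP peaks at late sites had a median fold enrichment of 5.59, against 5.70 at early sustained and 5.98 at constitutive sites. Of the 101 sites, 10 were at promoters, 35 in gene bodies and 56 in intergenic sequence, 63 held GGAATG and 22 TGANTCA. In the YAP lists of 3 d and WT, 1 late site each was called. Those lists hold 110 and 156 peaks against 1478 at 7 d.

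Early sustained peaks were called at both times, so the change between 3 d and 7 d could be measured there and set beside the same features, as a description without a test. The 7 d to 3 d ratio of pileup per tag had a median of 1.43 at early sustained peaks with GGAATG (quartiles 1.15 and 1.84, n = 6756) and 1.28 at those without it (n = 15510). It was 1.44 with TGANTCA and 1.31 without. It was 1.24 at promoters and 1.37 elsewhere. At early sustained peaks with a YAP peak of 7 d it was 2.41 (quartiles 1.75 and 3.46, n = 520), against 1.31 at those without one. The quartile ranges overlapped for the motifs and for promoters but not for YAP. Those with a YAP peak were strong at 7 d, with a median fold enrichment of 28.0 against 7.54 for all early sustained peaks. The ratio holds the 7 d pileup itself and was not compared at like fold enrichment.

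Chromosome X stood apart. On the 19 numbered chromosomes 25.5% to 30.4% of the 7 d TEAD peaks were late, whereas on X 308 of 616 were (50%, 95% interval 46.1 to 53.9). X held 616 TEAD peaks at 7 d, 363 at 3 d and 45 in WT, so its list was 1.70 times as long at 7 d as at 3 d, against 1.06 times on the numbered chromosomes. The late share on X was the higher one in all 10 classes of fold enrichment, for instance 69.6% against 45.8% in the second weakest. These classes held only 37 to 82 peaks of X each. In the strongest class the share was 10.8% on X (95% interval 4.29 to 24.7) against 5.49%, which lies within that interval. Late peaks were nevertheless sparse on X, at 1.85 per Mb against 4.40 on the numbered chromosomes. Those on X had a median fold enrichment of 6.36, and 43.8% held GGAATG. At the 267 early sustained peaks of X the 7 d to 3 d ratio had a median of 1.43, against 1.32 on the numbered chromosomes. On the numbered chromosomes alone the late share was 28.4%. The sex of the pooled animals is not given for any list, so its part in the difference on X was not tested.

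**Figure D4:**
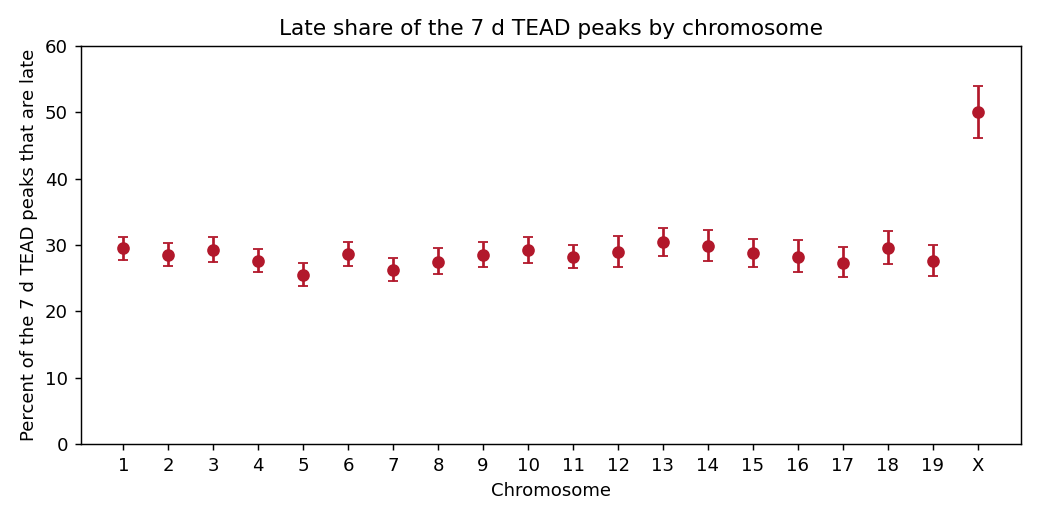
Percent of the 7 d TEAD peaks that are late on each chromosome, with 95% Wilson intervals. The numbered chromosomes lie between 25.5% and 30.4%, and X lies at 50%.

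Of 22380 protein-coding genes, 1909 had a late peak at the promoter (8.53%) and 7866 had a late summit within 20 kb of the gene (35.1%). Genes with a late summit within 20 kb were longer, with a median of 25.8 kb against 15.4 kb for all, and gene length differs between lists. At 851 of the 1909 promoters no TEAD peak had been called at 3 d or in WT, which is 3.80% of all protein-coding genes. A TEAD peak of 7 d of any class was at the promoter of 37.6% of genes. Gene lists were described by such counts, without a test of the lists.

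Of 10 genes for TEAD and VGLL proteins, YAP and its paralogue TAZ, 7 had late summits within 20 kb (70%, against 35.1% of all genes). Apart from the promoter peak of Tead4, the strongest was in the body of the TAZ gene Wwtr1 (20.8-fold, 3125 bp from a start, named after its value had been seen). Of 27 Hippo pathway genes, 14 had a TEAD promoter peak of some class at 7 d (51.9%, against 37.6% of all genes). Late promoter peaks were at 6 of the 27 (22.2%, against 8.53% of all genes), and 18 had a late summit within 20 kb (66.7%, against 35.1%). The promoter of Amotl2, an angiomotin that retains YAP at junctions, carried the strongest (12.8-fold, pileup 61), and others were at the junction gene Tjp1 (8.48-fold), the kinase gene Lats2 (5.42-fold) and Taok3 (4.71-fold). Of the 6, only Tjp1 had had no TEAD peak at its promoter earlier, which is 3.70% of the Hippo list, against 3.80% of all genes. Of 23 canonical YAP targets, 4 had a late promoter peak (17.4%, against 8.53% of all genes). A TEAD promoter peak of some class was called at 13 of the 23 at 7 d (56.5%, against 37.6% of all genes). Ankrd1, a standard YAP target, gained its first called promoter peak at 7 d (8.11-fold, pileup 43, 206 bp from a start, with 2 cores). The remaining promoters of this list with a late peak were those of Amotl2, Lats2 and Dock5 (4.48-fold). Of the 4, Ankrd1 and Dock5 had no earlier promoter peak, which is 8.70% of the list, against 3.80% of all genes. Named after their values had been seen, a strong late site lay within 20 kb of the target gene Myof (33.3-fold, 157470 bp from its start), and the Gm11985 site lay 27739 bp from the start of Igfbp3.

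Of 13 genes for AP-1 and related bZIP (basic leucine zipper) factors, 6 had a late promoter peak (46.2%, against 8.53% of all genes). The list holds Fos and Jun genes and also relatives such as Jdp2, Mafk and Maff. Fos carried 3 late promoter peaks, the strongest at 10.4-fold. Those of Jdp2 (7.54-fold), Mafk (6.36-fold), Maff (6.13-fold) and Fosb (4.95-fold) were weaker. Of the genes with a late promoter peak, only Jdp2 had no earlier TEAD peak there (7.69% of the list, against 3.80% of all genes). A TEAD peak of some class was at 10 of the 13 promoters at 7 d (76.9%, against 37.6% of all genes).

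Biliary and progenitor genes had a late promoter peak in 10 of 36 cases (27.8%, against 8.53% of all genes). A 7 d TEAD promoter peak of any class was at 20 of the 36 (55.6%, against 37.6% of all genes). In 7 of the 36 (19.4%, against 3.80% of all genes) a late peak was at a promoter with no earlier one. Of all 10, the strongest late promoter peak by -log10 p was at Bicc1, an RNA-binding protein gene (8.01-fold). Spp1, which encodes osteopontin, had 3 late promoter peaks (strongest 6.90-fold). The next were at Anxa2 (5.89-fold), the R-spondin receptor gene Lgr4 (5.66-fold) and the integrin gene Itga6 (4.90-fold). Of these, Lgr4 had an earlier TEAD peak at its promoter. Sox9, the transcription factor of bile duct cells, named after its value had been seen, had a peak of 5.18-fold enrichment 22 bp from a start and no earlier promoter peak.

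Cell cycle and replication genes had a late promoter peak in 12 of 42 cases (28.6%, against 8.53% of all genes). A 7 d TEAD promoter peak of any class was at 32 of the 42 (76.2%, against 37.6% of all genes). In 6 of the 42 (14.3%, against 3.80%) a late peak was at a promoter with no earlier one. The strongest late promoter peaks, with or without an earlier one, were at the helicase subunit gene Mcm5 (10.4-fold), the replication licensing gene Cdc6 (8.67-fold), the cyclin gene Ccnb2 (7.54-fold), the spindle checkpoint kinase gene Bub1 (6.83-fold) and the cell cycle inhibitor gene Cdkn1a (6.83-fold). Matrix, integrin and cytoskeleton genes had a late promoter peak in 11 of 42 cases (26.2%, against 8.53%). A 7 d TEAD promoter peak of any class was at 26 of these 42 (61.9%, against 37.6%). In 7 of the 42 (16.7%, against 3.80%) a late peak was at a promoter with no earlier one. The integrin genes Itga5 (8.48-fold) and Itga3 (8.01-fold), Actb (8.01-fold) and Tln1, which links integrins to actin (7.78-fold), led this list. Chemokine, cytokine and NF-kB genes had a late promoter peak in 7 of 41 cases (17.1%, against 8.53%). A 7 d TEAD promoter peak of any class was at 19 of the 41 (46.3%, against 37.6%). In 4 of the 41 (9.76%, against 3.80%) a late peak was at a promoter with no earlier one. The strongest of the 7 was at Nfkb1 (15.8-fold), followed by the adhesion molecule gene Icam1 (6.83-fold), Csf3 (6.16-fold), the chemokine gene Cx3cl1 (6.13-fold) and the STAT inhibitor gene Socs3 (5.89-fold).

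Of 25 hepatocyte transcription factor genes, 2 had a late promoter peak (8%, against 8.53% of all genes), namely the nuclear receptor genes Nr1h3 (5.42-fold) and Nr0b2 (5.18-fold), and 19 (76%, against 35.1%) had a late summit within 20 kb. Of 48 secreted and metabolic hepatocyte genes, 5 had one at the promoter (10.4%) and 28 within 20 kb (58.3%). The 5 were Otc of the urea cycle (6.83-fold), the bile acid synthesis genes Cyp27a1 (5.89-fold) and Cyp8b1 (5.78-fold), and the plasma protein genes Fgb (4.34-fold) and Apoh (4.48-fold). A TEAD peak of some class was present at 7 d at 39 of the 48 promoters of this list (81.25%, against 37.6% of all genes). Markers of endothelial cells, macrophages, stellate cells and lymphocytes had no late promoter peak in 30 genes and a late summit within 20 kb in 5 (16.7%, against 35.1% of all genes), and 2 of the 30 had a TEAD promoter peak of any class at 7 d. In whole liver, a change in the share of a cell type and a change in binding per cell cannot be told apart.

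**Figure D5:**
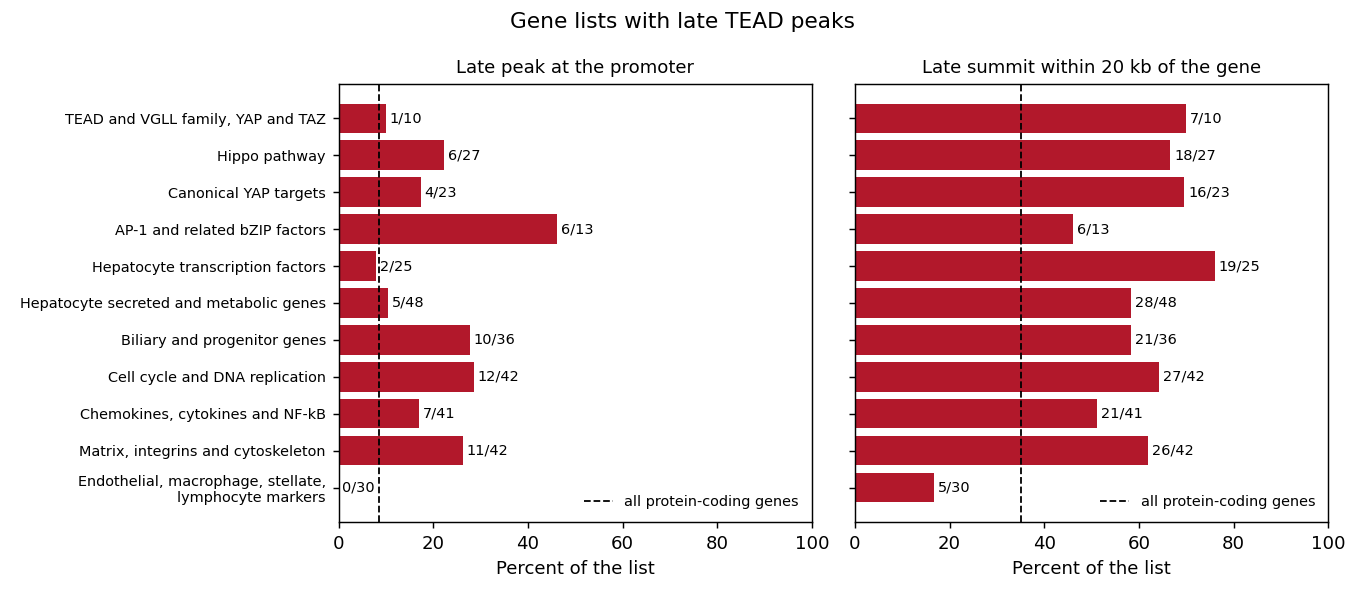
Percent of each gene list with a late TEAD peak at the promoter (left) and with a late summit within 20 kb of the gene (right), with the counts beside the bars and the share of all protein-coding genes as a dashed line at 8.53% and 35.1%. The list of AP-1 and related bZIP factors has the longest bar on the left at 46.2%, and the markers of other liver cell types have no bar on the left and 16.7% on the right.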

How the data were processed

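Peak lists from 19 chromatin immunoprecipitation libraries of mouse liver (6 groups, taken from the sample labels) were used. The authors aligned reads to mm9 with BWA 0.6.2, merged the replicates of each group and called peaks with MACS2 2.0.9 at a p-value cutoff of 1e-05 against 1 control of 167176362 tags from published data. The deposited lists give the pileup, a signal of stacked fragments at the summit that is not scaled for depth. They also give the fold enrichment, a ratio of pileup to background deposited by the authors, and the deposited −log10 p-value of each peak. Groups held 34260362 to 55032002 tags. The fragment length used in calling TEAD peaks was 400 bp in WT, 207 bp at 3 d and 206 bp at 7 d.

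Overlap meant at least 1 bp. Genes, promoters and sequence came from the mm9 assembly and GENCODE annotation. Intervals of shares are Wilson and of differences Newcombe, both at 95%, and at like fold enrichment early sustained peaks were reweighted over 10 classes of fold enrichment that hold 752 to 1483 late peaks each. The largest pileup that leaves a site uncalled at 3 d was taken from the Poisson test of the caller, with the 7 d background scaled by tags and fragment length. The recomputed −log10 p differed from the deposited one by a median of 0.0042. Genome shares of motifs came from a regular sample of 1271494 windows of the same length as the summit windows. Python 3, pandas and pysam were used, and the scripts were tested on simulated data. With 1 list per group no test between conditions was possible.

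Peaks named in the text were the 10 with the highest −log10 p at promoters, away from promoters and at YAP peaks, the 5 lowest, and for each gene list up to 5 genes with a late promoter peak by −log10 p. Members and the 11 gene lists were chosen with earlier results of these data known. Some peaks and genes that this rule selects, the late peak with the highest −log10 p among them, are not reported here, and the counts include them.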

Additional observations from a re-analysis of the deposited data

How the results depend on the processing

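No paired analysis was possible because every list comes from pooled libraries and carries no replicate number, so single replicates could not be left out either. The number of late peaks ranged from 8148 to 15502 over the alternatives. Where no older TEAD peak was allowed within 1000 bp, late peaks made up 23.5% of the 7 d list, 15.4% lay at promoters and 38.9% held GGAATG. Where peaks were shared only if summits lay within 100 bp, the values were 39.8%, 26.7% and 32.5%, and 10.2% held TGANTCA. With a −log10 p of at least 10 the late share was 24.7%, with 1.23% at a YAP peak, 15.9% at promoters, 41.5% with GGAATG and 12.0% with TGANTCA, and the differences from early sustained peaks were -15.1 points for promoters and 9.21 for GGAATG. With a fold enrichment of at least 5 these were 25.2%, 1.19%, 16.5%, 40.7%, 11.9%, -14.8 and 8.58. Reweighting gave differences of -0.088 (YAP), -16.3 (promoters) and 12.0 points (GGAATG). A promoter of 1000 bp on either side gave 16.7% of late peaks and 7.43% of genes, and coding genes alone 17.5%. Motifs within 50 bp of the summit were found in 28.6% (GGAATG) and 6.53% (TGANTCA) of late peaks, and anywhere in the peak in 41.9% and 15.1%. The differences from early sustained peaks were recomputed with reweighting, with the limits on −log10 p and fold enrichment and on chromosomes 1 to 19 and X only. None of these reversed a difference. They were not recomputed under the 1000 bp gap or the 100 bp summit rule, which redefine a late peak. The lowest ratio of 7 d to 3 d had a median of 2.05, or 1.51 when scaled to peaks found in all 3 TEAD lists. Late status rests on 1 call per time, and the 3 d and 7 d libraries differed in depth, and the late share was 50.5% in the weakest class of fold enrichment. The part of depth, batch and animals in the differences was not tested.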
